A study of Mus musculus with 10 samples.

Results

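Glucose uptake and the controlled steps of glycolysis were followed through 10 genes in 3T3-L1 preadipocytes after knockdown of Lsd1 (Kdm1a), which encodes a histone demethylase. The genes were chosen by name: the glucose transporter Slc2a1, the hexokinases Hk1 and Hk2, the enzymes Pfkfb3 and Pfkfb4 that make and remove fructose-2,6-bisphosphate, the phosphofructokinase subunits Pfkl, Pfkm and Pfkp, the lactate dehydrogenase subunit Ldha, and the pyruvate dehydrogenase kinase Pdk1. All probe sets whose platform gene symbol is one of these names were taken, 21 of 45037 probe sets in all, for 10 of the 18193 genes measured. No measured value was a criterion, but earlier results of these data were known when the genes were chosen.

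3T3-L1 is an established line of mouse fibroblast-like cells that can be turned into fat cells. Here the cells were still preadipocytes, grown in DMEM with calf serum. The arrays form 4 groups: siLsd1 at 24 h (2 arrays) and siC at 24 h (2 arrays), both from passage 19, and siLsd1 at 48 h (3 arrays) and siC at 48 h (3 arrays), both from passage 21. siLsd1 is an siRNA against LSD1 and siC a scrambled one. All dishes received 60 nM siRNA with Metafectene Pro, and the medium was not changed before RNA extraction. Because time and passage differ together, they cannot be told apart. The labels call the replicates biological but do not say how they were grown, so p-values measure the spread between these arrays.

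Glucose enters the cell through transporters such as GLUT1, the product of Slc2a1, and is trapped by hexokinase as glucose-6-phosphate. The next committed step is that of phosphofructokinase-1, a tetramer of liver, muscle and platelet subunits (Pfkl, Pfkm, Pfkp), which is activated by fructose-2,6-bisphosphate. Pyruvate is then reduced to lactate by lactate dehydrogenase or enters mitochondria, where pyruvate dehydrogenase kinases such as Pdk1 hold back its oxidation.

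RefSeq promoters of GRCm38.p6, from 250 bases before to 50 bases after a gene's start, were found for all 10 genes. They are shown for the 4 genes called at 48 h below and for Ldha, which was not called and whose window held the most motif matches. Capitals mark ACGTG or GCGTG on either strand, the core of the sites bound by hypoxia-inducible factors. Where RefSeq lists several starts (2 for Pfkfb3, 4 for Pfkm and 2 for Ldha), the most upstream of those listed is given.
Hk2 (chr6:82774405-82774704, minus strand): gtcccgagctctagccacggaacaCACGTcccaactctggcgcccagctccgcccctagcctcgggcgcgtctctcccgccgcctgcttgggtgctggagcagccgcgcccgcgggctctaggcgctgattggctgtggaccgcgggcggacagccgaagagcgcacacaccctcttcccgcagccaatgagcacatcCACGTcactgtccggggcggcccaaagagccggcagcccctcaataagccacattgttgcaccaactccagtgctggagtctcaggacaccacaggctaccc
Pfkfb3 (chr2:11553880-11554179, minus strand): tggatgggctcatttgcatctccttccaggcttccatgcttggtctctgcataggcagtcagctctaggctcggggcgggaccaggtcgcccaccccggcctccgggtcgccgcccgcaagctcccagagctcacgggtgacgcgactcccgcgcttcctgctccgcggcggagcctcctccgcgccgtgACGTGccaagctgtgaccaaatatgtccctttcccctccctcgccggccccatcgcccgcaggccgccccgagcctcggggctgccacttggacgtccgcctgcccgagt
Pfkp (chr13:6648722-6649021, minus strand): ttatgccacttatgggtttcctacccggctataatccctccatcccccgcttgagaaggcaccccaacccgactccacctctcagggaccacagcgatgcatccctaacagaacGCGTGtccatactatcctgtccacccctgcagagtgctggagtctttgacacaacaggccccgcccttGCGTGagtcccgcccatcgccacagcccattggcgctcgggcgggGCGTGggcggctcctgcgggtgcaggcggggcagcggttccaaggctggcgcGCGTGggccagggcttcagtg
Pfkm (chr15:98092339-98092638, plus strand): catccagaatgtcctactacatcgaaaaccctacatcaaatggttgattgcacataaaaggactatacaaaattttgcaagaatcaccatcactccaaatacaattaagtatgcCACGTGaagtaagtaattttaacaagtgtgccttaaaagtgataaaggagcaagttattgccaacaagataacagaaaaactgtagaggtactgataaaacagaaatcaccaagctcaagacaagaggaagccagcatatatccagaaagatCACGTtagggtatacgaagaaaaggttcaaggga
Ldha (chr7:46845554-46845853, plus strand): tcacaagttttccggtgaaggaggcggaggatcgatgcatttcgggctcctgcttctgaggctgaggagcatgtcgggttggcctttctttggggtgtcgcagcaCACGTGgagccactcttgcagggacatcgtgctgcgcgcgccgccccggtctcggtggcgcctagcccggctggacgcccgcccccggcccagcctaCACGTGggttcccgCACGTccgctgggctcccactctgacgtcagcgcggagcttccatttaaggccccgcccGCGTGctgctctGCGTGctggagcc
The core was present in 9 of the 10 promoters, all but that of Hk1, against 43.8% of all 32851 promoters of 300 bases. Counted on both strands, with CACGTG counted on each, it occurred 2 times in Hk2, 1 time in Pfkfb3, 4 times in Pfkp, 3 times in Pfkm and 7 times in Ldha. The E-box CACGTG, which holds this core and is bound by Myc among other factors, stood in 2 of the 10 promoters (Pfkm and Ldha), against 7.15% of all. The GC box GGGCGG, on either strand, stood in 8 of the 10, against 35.7% of all. These are matches of letters, and whether any of them is used in these cells was not measured. Each of the 10 genes was read at 1 start, the most upstream of those with a listed promoter, while the 32851 promoters hold every listed start. That start need not be the gene's outermost. The windows of Ldha, Pfkfb4 and Pfkp lay inside the RefSeq genes, whose upstream ends are chr7:46842274, chr9:108988272 and chr13:6649060. Hk1 and Pdk1 have 2 listed starts each. The windows of the 10 genes held from 36.7% (Pfkm) to 69.7% (Pfkfb3) G and C, and the comparison was not matched for this share.

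Intensities were on a linear scale with a median of 35.6 to 40.6 units per array. A linear model over all 10 arrays (limma, 13644 genes, each by its brightest probe set) gave log2 changes with standard errors (SE), and a gene was called at a Benjamini-Hochberg adjusted p under 0.05. Kdm1a itself had 1001 and 971 units in siLsd1 cells at 24 h, against 1559 and 1621 in siC cells. The 48 h arrays read 1352, 1336 and 897 units in siLsd1 cells, against 1596, 1787 and 1775 in siC cells. Its log2 change was -0.69 (SE 0.17, limma adjusted p = 0.0473) at 24 h and -0.55 (SE 0.14, adjusted p = 0.0338) at 48 h. Without replicate 3 of siLsd1 at 48 h the change was -0.35 at 48 h (adjusted p = 0.00277), and the 24 h value had an adjusted p of 4.81e-05. Without an intensity trend both calls were lost (adjusted p 0.0903 at 24 h and 0.0649 at 48 h). Either call was also lost without any 1 array that was not an siLsd1 48 h array, with adjusted p up to 0.252 at 24 h and 0.115 at 48 h. The 24 h call was lost as well in a fit of all 26208 probe sets (adjusted p = 0.0693) and with no filter on dim genes (adjusted p = 0.0576). In that fit of all probe sets, a dimmer Kdm1a probe set, 1426761_at, was called lower at both times (adjusted p 0.0174 at 24 h and 0.0144 at 48 h). With the arrays of 48 h fitted alone, the 48 h call was lost (adjusted p = 0.104). Each array's label matched the direction of Kdm1a.

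Replicate 3 of siLsd1 at 48 h stood apart from its group. Over 6943 bright genes, its log2 values differed from those of replicates 1 and 2 with an SD of 0.44 each, while other pairs of arrays within a group differed by 0.0892 to 0.205. Against the siLsd1 24 h arrays that SD was 0.36 and 0.35. For the 10 genes, replicate 3 lay above the mean of replicates 1 and 2 by 1.28 (log2) for Hk2, 0.47 for Pfkl, 0.43 for Ldha and 0.42 for Pfkfb3, and its Pfkm difference was -0.80. Results are therefore given with and without this array.

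At 48 h, 3 of the 10 genes were higher and 1 was lower in siLsd1 than in siC cells. Hk2 rose 2.13-fold, Pfkfb3 1.85-fold and Pfkp 1.42-fold, and Pfkm fell 1.72-fold. Called genes made up 12.7% of all genes tested at 48 h, 6.00% higher and 6.67% lower. The same 4 genes were called in the same direction without replicate 3 of siLsd1, where 18.1% of all genes were called, 8.16% higher and 9.96% lower. At 24 h, 0 of the 10 were called by limma, against 5.39% of all genes, and 3 of the 10 (Hk2, Pfkfb3 and Pfkm) had an unadjusted p under 0.05. Without that 48 h array, which leaves the 24 h values as they were but narrows the shared estimate of the spread, Hk2 and Pfkfb3 were called higher and Pfkm lower at 24 h, where 25.5% of all genes were then called, 10.1% higher and 15.3% lower. RNA came from whole dishes, so fewer cells of a type and less RNA per cell cannot be told apart.

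**Figure D1:**
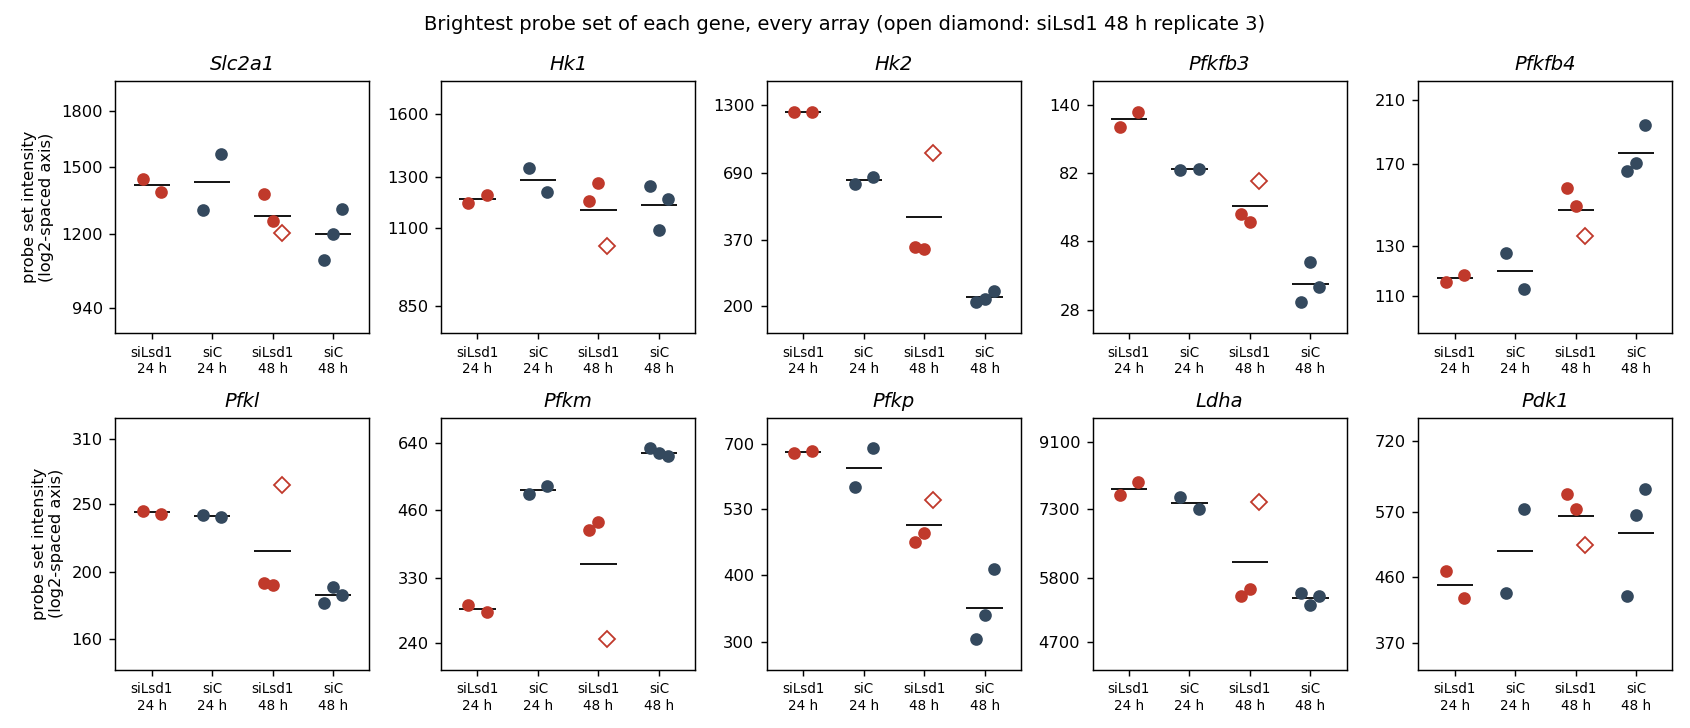
Intensity of the brightest probe set of each of the 10 genes on every array (vertical axes log2-spaced, each with its own range; bars are means of log2 values). In Hk2, 2 siLsd1 48 h arrays lie at 345 and 339 units and replicate 3 (open diamond) at 829, all above the siC 48 h arrays, which do not pass 230.1.

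Slc2a1, the glucose transporter of most growing cells, was not called by its brightest probe set. It had 1439 and 1382 units in siLsd1 cells at 24 h, against 1300.1 and 1563 in siC cells. After 48 h the values were 1369, 1256 and 1207 units in siLsd1 cells, against 1103, 1199 and 1306 in siC cells. The groups overlapped at both times. The log2 change at 48 h was 0.088 (95% interval -0.12 to 0.30), or 0.13 without replicate 3 of siLsd1, and at 24 h it was -0.016 (interval -0.27 to 0.24).

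A dimmer probe set of Slc2a1, 1426600_at, did differ at 48 h. It had 412, 437 and 451 units in siLsd1 cells, against 328, 327 and 364 in siC cells, with no overlap. In a fit of all 26208 probe sets that passed the dimness filter, where 8.08% were called at 48 h, its log2 change was 0.35 (SE 0.085, limma adjusted p = 0.0378). Without replicate 3 of siLsd1 it was 0.32 (adjusted p = 0.0224). The call was lost without any 1 of 8 other arrays (all but siLsd1 48 h replicates 1 and 3), with adjusted p from 0.0633 to 0.138. The third probe set, 1426599_a_at, had a log2 change of 0.03 (interval -0.14 to 0.20) at 48 h, so of this transporter's 3 probe sets 1 was called.

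Hk1, the hexokinase found in most tissues, was not called at either time. Its arrays read 1195 and 1228 units in siLsd1 cells at 24 h, against 1339.6 and 1238 in siC cells. At 48 h Hk1 read 1201, 1277 and 1037 units in siLsd1 cells, against 1264, 1093 and 1209 in siC cells. The 24 h groups were separate, by a gap narrower than the spread of the siC pair, and the 48 h groups overlapped. The log2 change was -0.088 (interval -0.34 to 0.17) at 24 h and -0.024 (interval -0.23 to 0.18) at 48 h, or 0.062 (interval -0.095 to 0.22) without replicate 3 of siLsd1. A dimmer Hk1 probe set, 1420901_a_at, had 20.97 to 59.5 units on all arrays and was not called (-0.48 at 24 h and 0.014 at 48 h, log2).

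Hk2, the hexokinase of muscle, fat and tumour cells that binds mitochondria and responds to many signals, gave the largest log2 changes of the 10 genes between siLsd1 and siC at both times with all arrays, while at 48 h without replicate 3 of siLsd1 that of Pfkfb3 was larger. It had 1219.7 and 1223 units in siLsd1 cells at 24 h, against 622 and 667 in siC cells. At 48 h it had 345, 339 and 829 units in siLsd1 cells, against 206, 213 and 230.1 in siC cells. No siLsd1 array overlapped a siC array of its time, and at 48 h replicate 3 of siLsd1 stood far above the other two. Over the 4 groups the means fell in the order siLsd1 24 h, siC 24 h, siLsd1 48 h and siC 48 h, with replicate 3 of siLsd1 at 48 h as the 1 array out of that order, above the siC 24 h pair.

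The mean of Hk2 at 48 h was 504 ± 281 units in siLsd1 cells and 216 ± 12.4 in siC cells (SD, n = 3 each). Its log2 change was 1.09 (SE 0.28, limma adjusted p = 0.0344) at 48 h, and 0.66 (adjusted p = 0.000163) without replicate 3 of siLsd1. At 24 h it was 0.92 (SE 0.34, adjusted p = 0.147), which, of the 10 omissions of an array, passed the threshold only without that one (adjusted p = 2.31e-05). The 48 h call held without any 1 siLsd1 48 h array and was lost without any 1 of the other 7 arrays, with adjusted p from 0.0569 to 0.105.

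Pfkfb3, whose enzyme mainly makes fructose-2,6-bisphosphate and so activates phosphofructokinase-1, had 118 and 133 units in siLsd1 cells at 24 h, against 84.4 and 84.6 in siC cells. The 48 h arrays read 59.6, 55.9 and 77.2 units in siLsd1 cells, against 29.7, 40.9 and 33.5 in siC cells. The groups did not overlap at either time, and the 4 groups lay in the same order of means as those of Hk2, with no array out of order. The log2 change was 0.89 (SE 0.17, limma adjusted p = 0.0135) at 48 h, and 0.75 (adjusted p = 0.0101) without replicate 3 of siLsd1. At 24 h it was 0.57 (SE 0.21, adjusted p = 0.141), and called only without that 48 h array (adjusted p = 0.0395). The 48 h call was lost in 1 of 10 omissions, that of siC 48 h replicate 1 (adjusted p = 0.0510). A second, dimmer probe set, 1456676_a_at, had 21.3 to 35.3 units on all arrays and a 48 h log2 change of 0.048 (interval -0.54 to 0.63).

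Pfkfb4, of the same enzyme family, was not called at either time. It had 115 and 118 units in siLsd1 cells at 24 h, against 127 and 112 in siC cells. After 48 h the values were 157, 148 and 134 units in siLsd1 cells, against 166, 170.5 and 194 in siC cells. The 48 h arrays did not overlap, with siLsd1 the lower, but the log2 change of -0.27 (SE 0.11, limma adjusted p = 0.119) was not called, nor was it without replicate 3 of siLsd1 (-0.21, adjusted p = 0.209). The 24 h groups overlapped.

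Among the phosphofructokinase-1 subunits, Pfkp and Pfkm were called in opposite directions and Pfkl was not called. Pfkp, the platelet-type subunit, had 673 and 681 units in siLsd1 cells at 24 h, against 582 and 688 in siC cells. At 48 h it had 461, 478 and 550.3 units in siLsd1 cells, against 304, 337 and 411 in siC cells. The groups overlapped at 24 h and were separate at 48 h.

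The log2 change of Pfkp was 0.51 (SE 0.12, limma adjusted p = 0.0304) at 48 h, 0.43 (adjusted p = 0.0259) without replicate 3 of siLsd1, and 0.098 (adjusted p = 0.758) at 24 h. The 48 h call was lost without either siLsd1 24 h array or without siC 48 h replicate 1 or 2 (adjusted p 0.0568 to 0.105). A dimmer probe set, 1430634_a_at, gave a like value of 0.50 (interval 0.01 to 0.99) without a call, and the dimmest, 1437759_at, gave -0.40 (interval -1.02 to 0.22).

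Pfkm, the muscle-type subunit, had 289 and 279 units in siLsd1 cells at 24 h, against 499 and 519 in siC cells. The 48 h arrays read 418, 435 and 245 units in siLsd1 cells, against 624, 608 and 600.3 in siC cells. All siLsd1 arrays lay below all siC arrays, across both times. The log2 change was -0.79 (SE 0.18, limma adjusted p = 0.0267) at 48 h, and -0.52 (adjusted p = 0.000412) without replicate 3 of siLsd1. At 24 h it was -0.84 (SE 0.22, adjusted p = 0.0589), which was called without that array (adjusted p = 2.17e-05) or without replicate 2 of siLsd1 at 48 h (adjusted p = 0.0491). The 48 h call was lost without siLsd1 24 h replicate 1 or any 1 siC 48 h array (adjusted p up to 0.0891).

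Pfkl, the liver-type subunit, had 244 and 242 units in siLsd1 cells at 24 h, against 241 and 239.7 in siC cells. After 48 h the values were 193, 192 and 266 units in siLsd1 cells, against 180.45, 189.85 and 185 in siC cells. The arrays did not overlap at either time, yet only replicate 3 lay well above the siC arrays. The log2 change at 48 h was 0.21 (interval -0.07 to 0.49), and 0.054 (interval -0.12 to 0.23) without replicate 3. At 24 h it was 0.017 (interval -0.33 to 0.36). The probe sets 1450269_a_at and 1453541_at of Pfkl had 48 h log2 changes of 0.38 (adjusted p = 0.172) and 0.057 (adjusted p = 0.871), neither called. Groups of 2 arrays were separate in 61.4% of all genes at 24 h and groups of 3 in 37.5% at 48 h, against 6 of the 10 genes at each time, so separate groups alone say little.

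Ldha, which encodes the lactate dehydrogenase subunit that favours lactate, had 7628 and 7965 units in siLsd1 cells at 24 h, against 7588 and 7297 in siC cells. At 48 h it had 5467, 5607 and 7459 units in siLsd1 cells, against 5533, 5311 and 5479 in siC cells. The 48 h groups overlapped, and apart from replicate 3 the arrays were within 5311 to 5607 units. The log2 change at 48 h was 0.17 (interval -0.06 to 0.39), and 0.025 (interval -0.065 to 0.12) without replicate 3. At 24 h it was 0.067 (interval -0.21 to 0.34).

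Pdk1, the pyruvate dehydrogenase kinase, was measured by 4 probe sets that did not move alike. The brightest, 1423747_a_at, had 469 and 429 units in siLsd1 cells at 24 h, against 436 and 575 in siC cells. The 48 h arrays read 604, 576 and 512 units in siLsd1 cells, against 432, 564 and 614 in siC cells. These groups overlapped and the changes were not called (-0.16 at 24 h and 0.084 at 48 h, log2). The next, 1423748_at, was not called either, at -0.19 (interval -0.54 to 0.16) and -0.23 (interval -0.51 to 0.06).

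The third Pdk1 probe set, 1435836_at, was lower with knockdown at both times. It had 139.7 and 139 units in siLsd1 cells at 24 h, against 257 and 259 in siC cells. After 48 h the values were 266, 270.5 and 183 units in siLsd1 cells, against 419.5, 410.0 and 449 in siC cells. No arrays overlapped within a time. In the fit of all probe sets, where 2.65% were called at 24 h, its log2 change was -0.89 (SE 0.18, limma adjusted p = 0.0327) at 24 h and -0.85 (SE 0.14, adjusted p = 0.0129) at 48 h.

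Without replicate 3 of siLsd1, the 48 h change of that probe set was -0.67 (adjusted p = 0.000626) and the 24 h call was kept (adjusted p = 0.000135). The 48 h call was lost without siC 48 h replicate 2 or 3 (adjusted p 0.0510 and 0.0567), and the 24 h call without any 1 array other than those of siLsd1 at 48 h (adjusted p 0.0542 to 0.246). The fourth probe set lay under the dimness limit of 18.4 units and was not tested. Which transcripts each probe set reads was not analysed here. At 24 h the log2 changes of the 3 tested probe sets were all negative and 1 was called, and at 48 h that of the brightest was positive and not called.

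**Figure D2:**
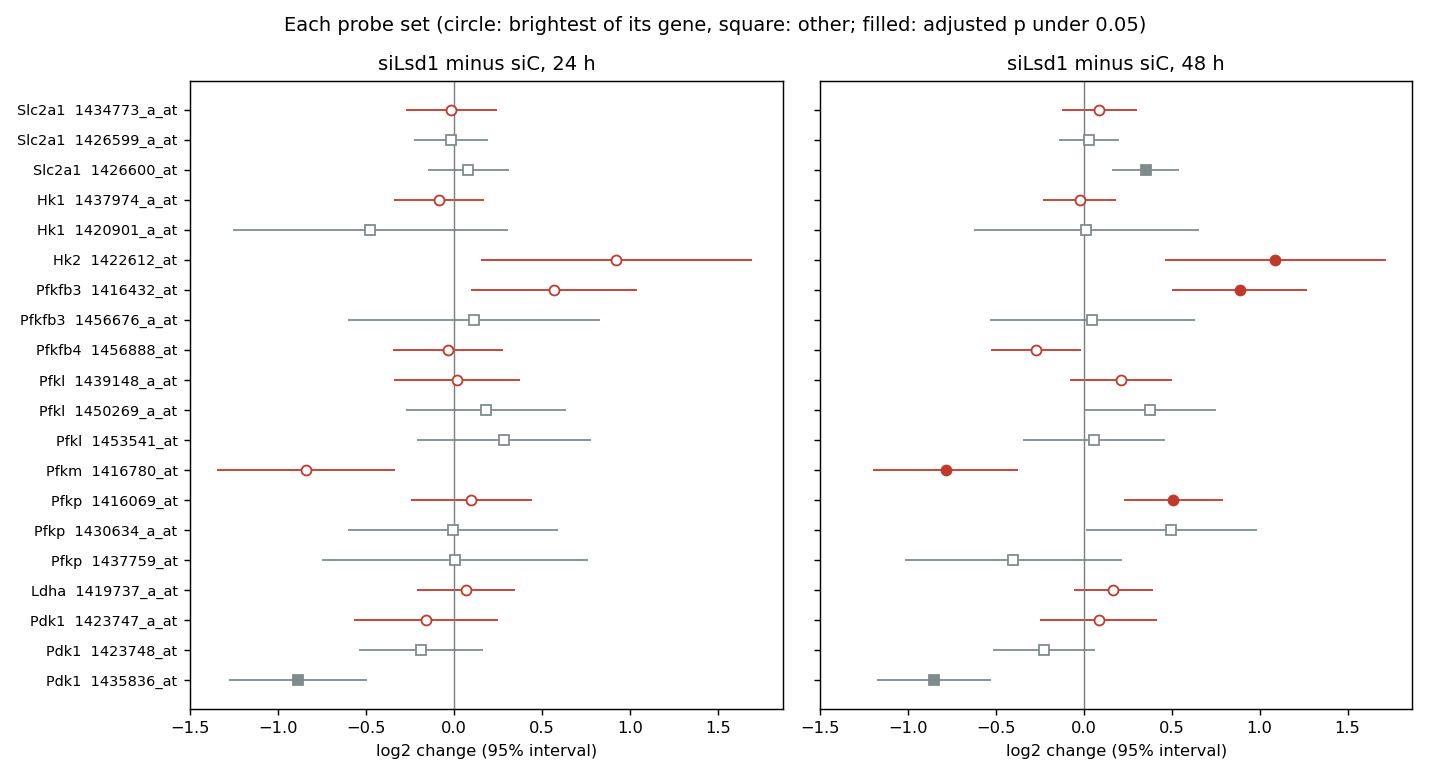
Log2 change (siLsd1 minus siC, horizontal axis, 95% interval) of each of the tested probe sets of the 10 genes at 24 h and 48 h; circles are the brightest probe set of a gene, squares the others, and filled symbols have an adjusted p under 0.05. The Pdk1 probe set 1435836_at lies at -0.89 and -0.85 while the brightest Pdk1 probe set lies at -0.16 and 0.084.

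**Figure D3:**
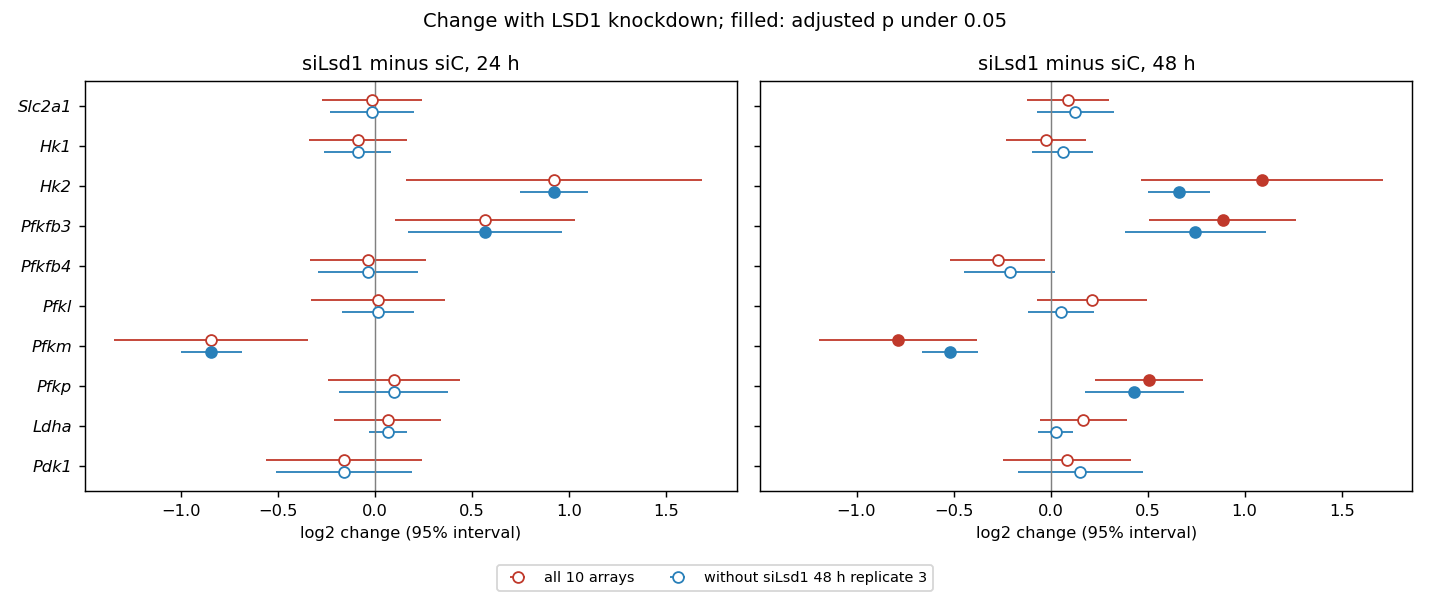
Log2 change of each gene (siLsd1 minus siC, horizontal axis, 95% interval) with all 10 arrays (red) and without replicate 3 of siLsd1 at 48 h (blue), filled where the adjusted p was under 0.05. At 48 h Hk2 moves to 0.66 in place of 1.09 without that array and Pfkm to -0.52 in place of -0.79, and the intervals of both genes narrow at both times.

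The 48 h calls depended on how the spread was estimated. With the arrays of 48 h fitted alone, 0 of the 10 genes were called (adjusted p 0.06905 for Pfkfb3, 0.09 for Pfkm, 0.0915 for Pfkp and 0.105 for Hk2), and without an intensity trend in the prior variance 1 was called, Pfkfb3 (adjusted p = 0.0207), with Pfkm at 0.0501, Pfkp at 0.0524 and Hk2 at 0.0645. Averaging all probe sets of each gene in place of taking the brightest, Hk2 and Pfkm were called and Pfkfb3 (0.47, adjusted p = 0.137) and Pfkp (0.20, adjusted p = 0.353) were not.

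Whether the knockdown change differed between the times was tested as an interaction. In none of the 10 genes was it called, and limma called 0 of 13644 genes, 896 of which had an unadjusted p under 0.05, with 0 of the 10 among them. The largest difference of the 10 was that of Pfkp, 0.41 (48 h change minus 24 h change, interval -0.03 to 0.85, adjusted p = 0.797). For Hk2 it was 0.16 (interval -0.82 to 1.15). Without replicate 3 of siLsd1, the difference for Hk2 was -0.26 (interval -0.50 to -0.02, adjusted p = 0.291) and for Pfkm 0.32 (interval 0.11 to 0.54, adjusted p = 0.135). Neither was called, and 1.47% of all genes were.

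Between 48 h (passage 21) and 24 h (passage 19), 5 of the 10 genes were called by their brightest probe set in siC cells, 1 higher and 4 lower at 48 h, against 24.2% of all genes tested, 12.0% higher and 12.2% lower. Hk2 averaged 216 ± 12.4 units at 48 h (SD, n = 3) and 644 ± 32.1 at 24 h (SD, n = 2), a log2 change of -1.58 (SE 0.31, limma adjusted p = 0.00583). Pfkfb3 averaged 34.7 ± 5.71 units at 48 h and 84.5 ± 0.17 at 24 h, a log2 change of -1.30 (SE 0.19, adjusted p = 0.00115). Pfkp fell by 0.86 on the log2 scale (SE 0.14, adjusted p = 0.00199) and Ldha by 0.45 (SE 0.11, adjusted p = 0.0163).

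By brightest probe set, Pfkfb4 was the 1 gene of the 10 called higher with time in siC cells, with 177 ± 14.7 units at 48 h (SD, n = 3), against 119.75 ± 10.3 at 24 h (SD, n = 2), a log2 change of 0.56 (SE 0.12, limma adjusted p = 0.00886). Pfkfb3 and Pfkp were called whichever array was left out. Hk2 was lost without siC 24 h replicate 2 (adjusted p = 0.0514), Pfkfb4 without the same array (adjusted p = 0.0875), and Ldha without siC 24 h replicate 1 or 2 or siC 48 h replicate 2 (adjusted p 0.0543 to 0.110). Without replicate 3 of siLsd1, 8 of the 10 genes were called in siC cells, 2 higher (Pfkfb4 and Pfkm) and 6 lower, against 40.4% of all genes, 21.1% higher and 19.3% lower. Slc2a1 (-0.25, adjusted p = 0.0465), Pfkl (-0.38, adjusted p = 0.0024) and Pfkm (0.26, adjusted p = 0.00735) were the additions. With probe sets averaged and all arrays kept, Slc2a1 was called in siC cells as well (-0.39, adjusted p = 0.00898).

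In siLsd1 cells, 2 of the 10 were called between the times, both lower at 48 h, against 14.4% of all genes, 7.25% higher and 7.13% lower. Hk2 changed by -1.41 (SE 0.31, limma adjusted p = 0.0160) and Pfkfb3 by -0.98 (SE 0.19, adjusted p = 0.00879). Without replicate 3 the count was 7, with Pfkfb4 and Pfkm higher and Hk2, Pfkfb3, Pfkl, Pfkp and Ldha lower, against 38.3% of all genes, 21.3% higher and 17.1% lower. Hk2 was then at -1.84 (adjusted p = 2.32e-07). With all arrays, the call of Hk2 was lost without siLsd1 24 h replicate 1 or 2 or siLsd1 48 h replicate 2 (adjusted p 0.0501 to 0.113), and that of Pfkfb3 without siLsd1 24 h replicate 1 or 2 (adjusted p 0.0588 to 0.0984).

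Dimmer probe sets of Slc2a1 and Pdk1 were called between the times as well, in the fit of all probe sets, where 20.9% were called in siC cells and 10.6% in siLsd1 cells. The Slc2a1 probe set 1426600_at averaged 433 ± 20.0 units at 48 h (SD, n = 3) and 578 ± 9.20 at 24 h (SD, n = 2) in siLsd1 cells, a log2 change of -0.42 (limma adjusted p = 0.0231). In siC cells it averaged 339.8 ± 21.3 units at 48 h (SD, n = 3) and 546 ± 22.3 at 24 h (SD, n = 2), a log2 change of -0.69 (SE 0.095, adjusted p = 0.00113). The siC call held whichever array was left out, and the siLsd1 call was lost without either siLsd1 24 h array or siLsd1 48 h replicate 1 or 2 (adjusted p 0.0676 to 0.177).

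The Pdk1 probe set 1435836_at averaged 239.6 ± 49.3 units at 48 h (SD, n = 3) and 139.3 ± 0.50 at 24 h (SD, n = 2) in siLsd1 cells, a log2 change of 0.76 (limma adjusted p = 0.0173), or 0.94 without replicate 3 (adjusted p = 3.28e-05). In siC cells it averaged 426 ± 20.5 units at 48 h (SD, n = 3) and 258 ± 1.41 at 24 h (SD, n = 2), a log2 change of 0.72 (SE 0.16, adjusted p = 0.0115). The siC call was lost without either siC 24 h array (adjusted p 0.0717 and 0.0768). The siLsd1 call was lost without either siLsd1 24 h array or siLsd1 48 h replicate 1 or 2 (adjusted p 0.0591 to 0.128). By these probe sets Slc2a1 fell and Pdk1 rose with time, where the brightest probe set of neither gene was called with all arrays. The remaining tested probe set of each gene was not called either. For Slc2a1, 1426599_a_at was at -0.25 in siC and -0.20 in siLsd1 cells. For Pdk1, 1423748_at was at 0.024 in siC and -0.012 in siLsd1 cells. The comparisons of both siRNAs and both times share their arrays, so their values are not independent of one another.

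**Figure D4:**
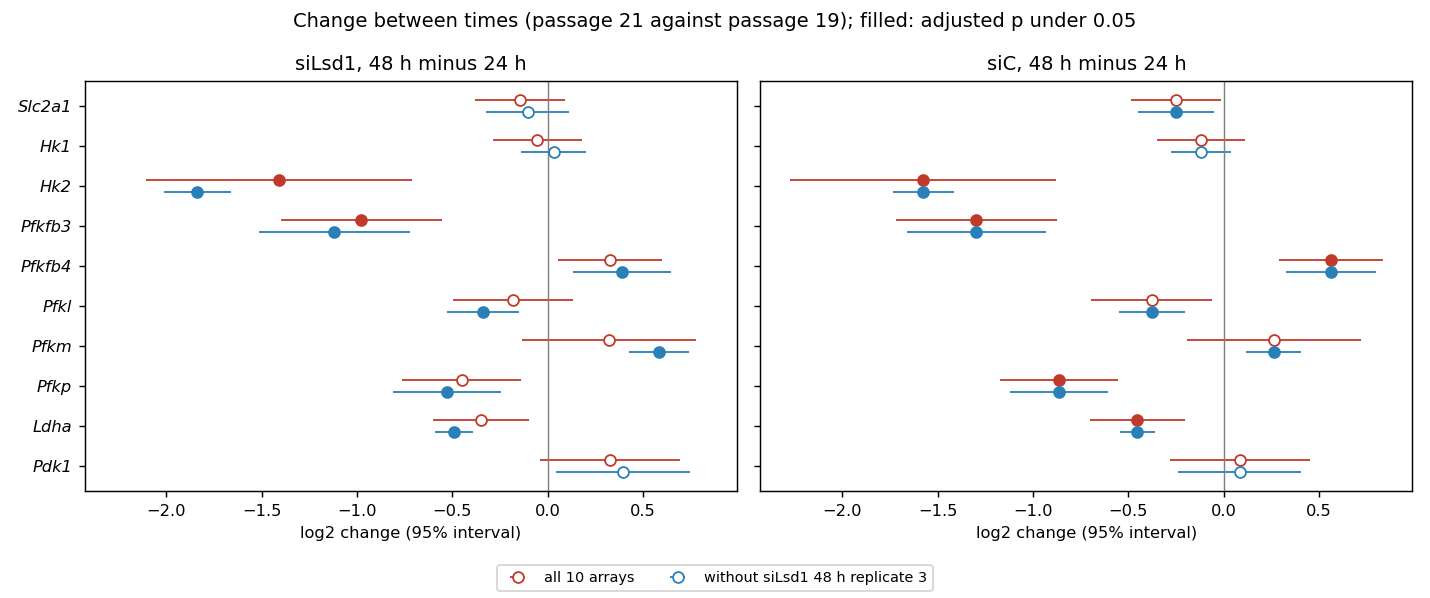
Log2 change between 48 h and 24 h (horizontal axis, 95% interval) in siLsd1 and siC cells, with all arrays (red) and without replicate 3 of siLsd1 at 48 h (blue), filled where the adjusted p was under 0.05. Hk2 (-1.41 in siLsd1 cells and -1.58 in siC cells) and Pfkfb3 (-0.98 and -1.30) lie lowest in both panels, and the blue values in siC cells differ from the red only in their intervals.

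The genes whose profiles over the 10 arrays lay nearest to that of Hk2, each centred on its own mean, were Myc, Il15 and Tnfrsf12a, with root mean square differences of 0.12, 0.15 and 0.16 on the log2 scale. The SD of Hk2 itself over the arrays was 1.00. Myc, a transcription factor that promotes growth, had 459, 450 and 995 units in siLsd1 cells at 48 h, against 267, 294 and 288 in siC cells. Its arrays, replicate 3 included, were ordered much like those of Hk2. Nearest to Ldha were Pum3 (0.0380), Naa50 (0.0406) and 2610524H06Rik (0.0416), and nearest to Slc2a1 were Krcc1 (0.0264), Ccnyl1 (0.0456) and Brwd1 (0.0480). Flat profiles lie near many others, and the SD of Slc2a1 was only 0.14.

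Lists of other genes of glucose metabolism were read beside the 10, against the 5.39% of all genes called at 24 h and 12.7% at 48 h. Of 16 genes tested on a list of other glycolytic enzymes, 2 rose and 1 fell at 48 h: Tigar, which lowers fructose-2,6-bisphosphate (log2 change 0.77, limma adjusted p = 0.0272), Pkm, pyruvate kinase (0.56, adjusted p = 0.0281), and Ldhb, the lactate dehydrogenase subunit of heart (-0.63, adjusted p = 0.00731). Pigq, which is not a glycolytic enzyme, was counted among the 16 and was not called (0.042 at 48 h, adjusted p = 0.773). At 24 h Ldhb was the 1 gene called (-0.62, adjusted p = 0.0238), and that call was lost without any 1 of the 24 h arrays or siC 48 h replicate 2 (adjusted p up to 0.226). The list's median, Pigq included, was 0.24 at 48 h, that of the 10 genes 0.13 and that of all genes -0.02. Of 11 genes listed as other glucose and lactate transporters, Slc16a1, a lactate carrier, rose at 48 h (0.68, adjusted p = 0.0183) and none was called at 24 h, where Slc2a8 had the smallest p (-0.59, adjusted p = 0.0583). Not all of the 11 are carriers of glucose or lactate. Bsg and Emb, for example, are partner proteins of lactate carriers, and Slc2a13 carries myo-inositol. Of 12 genes of pyruvate dehydrogenase and pyruvate entry, the kinase Pdk3 rose at 48 h (0.38, adjusted p = 0.0445) and none was called at 24 h, where Pdhb had the smallest p (0.23, adjusted p = 0.165).

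Without replicate 3 of siLsd1 at 48 h these counts were larger at 24 h, as was the 25.5% of all genes then called. At 24 h, 3 genes of the glycolytic enzyme list were then higher and 2 lower, and 1 of the transporter list was higher and 2 lower (Slc2a8 among them, adjusted p = 0.000581). Of the pyruvate dehydrogenase list, 2 genes were higher (Pdhb among them, adjusted p = 0.00778) and 1 lower. At 48 h, against 18.1% of all genes, 2 enzymes were higher and 1 lower, and 1 gene was higher and 1 lower in each of the other two lists. With probe sets averaged, the 48 h calls of Tigar (0.51, adjusted p = 0.0651), Pdk3 (adjusted p = 0.0557) and Taldo1 of the next list (adjusted p = 0.0600) were lost, and Slc16a1 was at 1.29.

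The pentose phosphate pathway and glycogen synthesis both draw on glucose-6-phosphate. Of 7 genes of the pentose phosphate pathway, Rpia, ribose-5-phosphate isomerase, rose at 24 h (0.77, limma adjusted p = 0.0145) and at 48 h (0.92, adjusted p = 0.00185), and Taldo1, transaldolase, rose at 48 h (0.42, adjusted p = 0.0473). Of 9 genes of glycogen and gluconeogenesis, Gyg, the primer of glycogen, rose at 24 h (0.46, adjusted p = 0.0115) and 48 h (0.47, adjusted p = 0.00369), and Ugp2 rose at 48 h (0.45, adjusted p = 0.0432). These calls were kept without replicate 3 of siLsd1, with Rpia at 0.78 and Gyg at 0.43 at 48 h. At 24 h without it, 4 genes of the pentose phosphate pathway were higher and 1 lower, and 2 of the glycogen list were higher and 3 lower. At 48 h those counts were 4 higher and 0 lower, and 2 higher and 1 lower. Of all genes, the fit without replicate 3 called 10.1% higher and 15.3% lower at 24 h, and 8.16% higher and 9.96% lower at 48 h. The 24 h calls of Rpia and Gyg, with all arrays, were lost without any 1 of the 24 h arrays (adjusted p up to 0.132).

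Of 17 tested regulators of glycolytic genes, Myc rose (1.06, limma adjusted p = 0.0274) and Epas1, a hypoxia-inducible factor, fell (-1.56, adjusted p = 0.00953) at 48 h. At 24 h none was called, and Mlx had the smallest p (0.59, adjusted p = 0.0682). Of 13 hypoxia-responsive genes outside glycolysis, Ero1a (1.08, adjusted p = 0.00260) and Ddit4 (0.89, adjusted p = 0.0161) rose at 48 h, and Egln3 fell at 24 h (-0.95, adjusted p = 0.0238), a call lost without any 1 of the 24 h arrays (up to 0.219). Without replicate 3, Myc was at 0.68 and Epas1 at -1.15 at 48 h, both still called. At 24 h without it, 3 regulators were higher (Mlx among them, adjusted p = 0.0121) and 2 lower, and 4 hypoxia-responsive genes were higher and 2 lower. At 48 h those counts were 2 higher and 1 lower, and 3 higher and 1 lower. The shares of all genes in that fit were 10.1% higher and 15.3% lower at 24 h, and 8.16% higher and 9.96% lower at 48 h. With probe sets averaged, Epas1 was at -0.38 (adjusted p = 0.576) and its call was lost.

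Without an intensity trend, the 48 h calls of Pkm, Pdk3, Taldo1, Ugp2 and Myc were lost (limma adjusted p 0.0524 to 0.0792), as was the 24 h call of Ldhb (0.0501). Those of Pdk3, Taldo1 and Ugp2 were lost as well in the fit of all probe sets and with no filter on dim genes (adjusted p 0.0528 to 0.0612). In these lists the 48 h calls of Ldhb, Rpia, Gyg, Ero1a and Epas1 (by its brightest probe set) held whichever array was left out. With the 48 h arrays fitted alone, that of Epas1 was lost (adjusted p = 0.0541), as were those of Tigar, Pkm, Slc16a1, Pdk3, Taldo1, Ugp2, Myc and Ddit4 (up to 0.125). Those of Tigar, Pkm and Myc were lost without either siLsd1 24 h array or any 1 siC 48 h array (adjusted p up to 0.0981), those of Slc16a1 and Ddit4 without any 1 siC 48 h array (up to 0.0715), and those of Pdk3, Taldo1 and Ugp2 without any 1 array other than those of siLsd1 at 48 h (up to 0.141), Taldo1 also without siLsd1 48 h replicate 1.

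**Figure D5:**
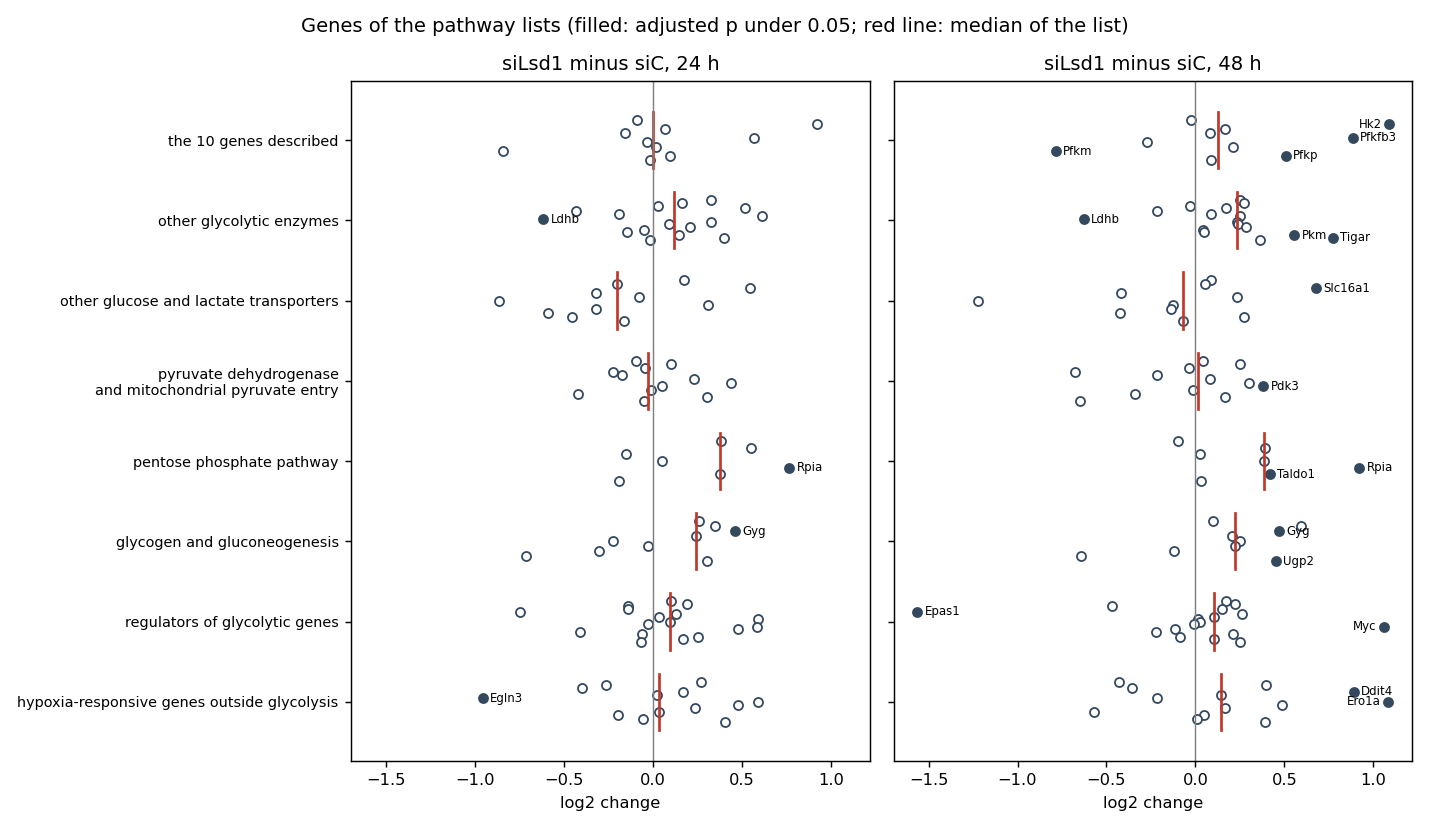
Log2 change (siLsd1 minus siC, horizontal axis) of each tested gene of the 10 and of 7 further lists at 24 h and 48 h, filled and named where the adjusted p was under 0.05; red lines are list medians. At 48 h Hk2 (1.09), Myc (1.06) and Ero1a (1.08) lie farthest right and Epas1 (-1.56) farthest left of those called.

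Markers of cell types were set beside these changes. Of 9 preadipocyte and fibroblast markers measured, 8 passed the dimness limit. The summed level of all 9 was 38796 to 49434 units in siLsd1 cells at 48 h, against 52424 to 52509 in siC cells. The 38796 was that of replicate 3 of siLsd1, where Pdgfra had 1865 units, against 5757 and 5909 in replicates 1 and 2. At 24 h the sum was 45477 to 46194 units in siLsd1 cells, against 52024 to 53269 in siC cells. Thy1 was lower with knockdown at 24 h (-0.83, limma adjusted p = 0.0112) and 48 h (-0.83, adjusted p = 0.00412), and Fn1 at 24 h (-0.46, adjusted p = 0.0249). Of the 8 tested, 5 were lower at 24 h and 2 at 48 h, and none higher, without replicate 3 of siLsd1 at 48 h. Of all genes, that fit called 15.3% lower and 10.1% higher at 24 h, and 9.96% lower and 8.16% higher at 48 h.

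Of 8 mature adipocyte markers measured, 5 passed, with Cidec, Retn and Lep under the limit. The sum of all 8 was 2102 to 3602 units in siLsd1 cells at 48 h, against 5153 to 5857 in siC cells. The 2102 was that of replicate 3 of siLsd1, where Fabp4 had 1384 units, against 3008 and 2771 in replicates 1 and 2. At 24 h the sum of the 8 was 2025 to 2209 units in siLsd1 cells, against 4064 to 4151 in siC cells. Fabp4, which made up most of that sum, was lower at 24 h (-1.28, adjusted p = 0.0358) and 48 h (-1.16, adjusted p = 0.0183, or -0.81 without replicate 3 of siLsd1), and with probe sets averaged the 24 h change was -0.87 (adjusted p = 0.0842). It was the 1 adipocyte marker called, with or without replicate 3. Without Fabp4, a sum taken after the values were seen, the other 7 measured markers came to 594 to 718 units in siLsd1 cells at 48 h, against 515 to 615 in siC cells, and at 24 h to 595 to 705.0 units in siLsd1 cells, against 564 to 570.5 in siC cells. The 718 was that of replicate 3 of siLsd1. Most of the sum without Fabp4 was Pnpla2, a lipase, with 428, 453 and 561 units in siLsd1 cells at 48 h, against 385, 359 and 361 in siC cells. Pnpla2 was at 0.24 at 24 h (adjusted p = 0.377) and 0.38 at 48 h (adjusted p = 0.0628), not called. Adipoq, adiponectin, was at -0.29 and -0.58 (adjusted p = 0.717 and 0.247). Without an intensity trend the 24 h calls of Fn1 and Fabp4 were lost (limma adjusted p 0.0748 and 0.0761). Of the calls of Thy1, Fn1 and Fabp4, that of Thy1 at 48 h held whichever array was left out, those of Fabp4 were lost without any 1 siC 48 h array (and at 24 h any 24 h array), and those of Thy1 and Fn1 at 24 h without any 1 of the 24 h arrays (for Fn1 also siC 48 h replicate 2), with adjusted p up to 0.264. The part of these markers in the changes of Hk2, Pfkfb3, Pfkp and Pfkm was not tested.

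Among macrophage and leukocyte markers, 0 of 5 tested were called at either time (smallest p at 24 h for Itgam, adjusted 0.325, and at 48 h for Adgre1, adjusted 0.172), with Ptprc and Cd3e under the limit. The sum of all 7 measured at 48 h was 419 (replicate 3) to 458 units in siLsd1 cells, against 421 to 451 in siC cells. At 24 h the sum was 495 to 563 units in siLsd1 cells, against 576 to 577 in siC cells, without overlap. Without replicate 3 of siLsd1 at 48 h, 1 marker was called lower at 24 h, as were 15.3% of all genes. Among muscle markers, Des rose at 48 h (0.50, limma adjusted p = 0.0458), a call kept in 1 of 10 omissions, and at 24 h Acta1 had the smallest p (0.88, adjusted p = 0.0837). Myog and Myh1 were under the limit. The sum of all 6 muscle markers at 48 h was 292 (replicate 3) to 366 units in siLsd1 cells, against 247 to 325 in siC cells. The 24 h sum was 415 to 458 units in siLsd1 cells, against 283 to 343 in siC cells, again without overlap. Without replicate 3 of siLsd1 at 48 h, 1 muscle marker was called higher at 24 h, as were 10.1% of all genes. Under the limit, too, were 5 of 6 epithelial and endothelial markers, Krt8 being the 1 tested (0.39, adjusted p = 0.429, at 48 h).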

How the data were processed

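Probe set intensities on a linear scale, 1 value per probe set and array, were used as deposited by the authors. Total RNA was labelled by standard Affymetrix protocols, per the labels' protocols. The summarisation, normalization and genome build are not given in the sources used here. Symbols came from the platform annotation (34945 probe sets with 1 symbol, 932 with several, left out, among them 1 that lists Hk1, and 9160 with none). RefSeq's gene table (GRCm38.p6) held the Entrez identifiers of 34741, and 0 symbols changed. RefSeq's promoter table supplied the sequences.

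Log2 of the intensity was taken with nothing added. The probe set with the highest mean stood for a gene, the dimmest 25% of 18193 genes were left out (4549 genes, up to 18.4 units), and 13644 were tested, all 10 described genes among them. The model, in limma 3.58.1 under R 4.3.3, held 1 mean per group for 4 groups and 10 arrays, used lmFit and eBayes with an intensity trend, and had 6 residual degrees of freedom. P-values were adjusted by Benjamini and Hochberg within each of 5 comparisons, with 0.05 as the threshold. A second fit covered 26208 probe sets. Means ± SD are of linear intensities. The fit was tested on simulated data.

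Genes named are the 10 with every probe set, Kdm1a, up to 3 called genes a direction of each list or the 1 with the smallest p, and the 3 genes nearest in profile to Slc2a1, Hk2 and Ldha. The genes, lists and tests were chosen with earlier results of these data known. No 2 arrays held identical values. Deviations of same-numbered siLsd1 and siC arrays from their group means correlated at -0.0737 at 24 h and -0.19, 0.0544 and -0.0639 at 48 h over 13644 genes. Differently numbered arrays gave 0.0737 at 24 h and -0.12 to 0.15 at 48 h. The numbers thus gave no sign of pairing the arrays, but with 2 or 3 arrays a group these correlations cannot exclude it. Alternatives were other probe set, filter, normalization, background, weight, prior and block choices and each array left out in turn. The number of arrays limits the precision.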

Additional observations from a re-analysis of the deposited data

How the results depend on the processing

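Of the 10 genes, 0 were called at 24 h, 4 at 48 h, 5 between the times in siC cells and 2 in siLsd1 cells. With array weights, which gave replicate 3 of siLsd1 at 48 h a weight of 0.0948, these counts were 3, 4, 9 and 8. Of all 13644 genes, weights called 3571, 4922, 6192 and 6336. With only the arrays of both groups compared, the counts of the 10 were 3, 0, 7 and 0. All genes called were then 3183 at 24 h, 250 at 48 h and 4717 between the times in siC cells. At 24 h, 1 of the 10 was called with quantile normalization (754 of all genes) and 1 with arrays centred on the median (870 of all genes). With probe sets averaged per gene, 2 of the 10 were called at 48 h (948 of all genes) and 1 between the times in siLsd1 cells (1397 of all genes). Without an intensity trend 1 of the 10 was called at 48 h (1006 of all genes). With the replicate block, whose numbers gave no sign of pairing the arrays, 0 were called at 24 h, 4 at 48 h, 6 in siC cells and 4 in siLsd1 cells. The cause was not tested. With each array left out in turn, the count was 0 to 3 at 24 h, 0 to 4 at 48 h, 0 to 0 for the difference of the changes, 2 to 8 in siC cells and 0 to 7 in siLsd1 cells. Omitting a 24 h array leaves a lone array, assumed to vary like the others.

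Over all genes, 736 were called at 24 h and 1728 at 48 h. With probe sets averaged these were 427 and 948, without the trend 402 and 1006, with weights 3571 and 4922, with the compared arrays alone 3183 and 250, and with the replicate block 149 and 665. Between the times, weights gave 6192 in siC cells (3302 before) and 6336 in siLsd1 cells (1962 before). The siC arrays alone gave 4717 and the siLsd1 arrays alone 347. The difference of the changes, 0 calls, gave 434 with weights. Leaving out 1 array gave 30 to 3478 at 24 h, 382 to 2473 at 48 h, 0 to 201 for the difference, 1482 to 5510 in siC cells and 357 to 5232 in siLsd1 cells. Centring moved the median of all genes by time in siC cells to -0.13 from 0.01, and 1053 of 3676 calls were then higher, against 1640 of 3302. At 24 h, 330 of 870 were higher after centring, against 355 of 736, and at 48 h 1043 of 1799, against 818 of 1728.

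Signs turned, in log2 changes that were not called except that of Des, with probe sets averaged (Des -0.21 and Pdk1 -0.46 at 48 h, Slc2a1 0.016 at 24 h), quantile normalization (Pfkfb4 0.021 and Ldha -0.0053 at 24 h), centring (Hk1 0.036 at 48 h, Pdk1 -0.052 by time in siC cells) and weights (Hk1 0.15 at 48 h and 0.030 by time in siLsd1 cells, and Hk2 -0.22 and Ldha -0.0039 for the difference of the changes). With an array left out, ranges that crossed 0 were, at 24 h, -0.12 to 0.052 for Pfkfb4, -0.022 to 0.22 for Pfkp, -0.15 to 0.12 for Slc2a1 and -0.36 to 0.040 for Pdk1. At 48 h they were -0.088 to 0.062 for Hk1 and -0.065 to 0.19 for Pdk1. For the difference they were -0.029 to 0.24 for Slc2a1, -0.00064 to 0.15 for Hk1, -0.26 to 0.38 for Hk2, -0.091 to 0.32 for Pfkm and -0.042 to 0.18 for Ldha. By time they were -0.11 to 0.28 for Pdk1 in siC cells and -0.12 to 0.031 for Hk1 in siLsd1 cells. Among genes of the other lists, the 48 h call of Epas1 was lost with probe sets averaged (-0.38, adjusted p = 0.576). Hk2, Pfkm, Pfkp and Pfkfb3 kept their direction at 48 h in every alternative that tested them. Pfkfb3 was not tested under the stricter filter on dim genes.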
